A study of Mus musculus with 17 samples.

Results

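Frontal cortex RNA of mice was compared between 5 libraries with high levels of striatal genes, called striatum-rich here, and 7 libraries with low levels, called striatum-poor. These 12 libraries were taken from a series of 17. All 17 were labelled as frontal cortex of male FVB/N mice, and polyadenylated RNA was sequenced from 1 end. In the control group (Ct) the mice carried a CamK driver alone, and in the dTg group they carried the dTg-211 genotype, which adds a miR-211 transgene to that driver. None of the 12 libraries came from mice given doxycycline. The labels do not give ages, do not say whether 1 or several mice made a library, and do not state that the libraries of a group came from separate animals, so the p-values below measure only the spread between these samples. Because both genotypes carry the CamK driver, which acts in forebrain excitatory neurons, an effect of the driver itself cannot be seen in these comparisons.

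Ct 4, Ct 6, dTg 2, dTg 3 and dTg 6 formed the striatum-rich class, and Ct 1, Ct 2, Ct 3, Ct 5, dTg 4, dTg 5 and dTg 7 formed the striatum-poor class. The class of a library was chosen from the measured levels of striatal genes in these same libraries, with Drd1, Drd2, Adora2a and Adcy5 as markers. Every difference between the classes is therefore a description of how the 2 sets of libraries differ, and no p-value is given for a single gene in it. Left out were the 3 libraries of doxycycline-treated dTg mice (dTgDox) and 1 library deposited under 2 labels, dTg 1 and NTg 1, whose files hold identical values.

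The striatum lies beneath the frontal cortex, and most of its neurons are medium spiny neurons, which are inhibitory and receive both cortical glutamate and midbrain dopamine. Those of the direct pathway carry the D1 dopamine receptor and substance P, and those of the indirect pathway carry the D2 dopamine receptor, the adenosine receptor Adora2a and enkephalin. In both kinds these receptors act on a cAMP pathway in which the G protein subunits Gnal and Gng7 and the adenylyl cyclase Adcy5 make cAMP, phosphodiesterases break it down, and DARPP-32 relays the signal to a protein phosphatase. A small set of large cholinergic interneurons supplies striatal acetylcholine.

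Drd2, the D2 dopamine receptor, was at 18.9 FPKM in Ct 4, 19.1 in Ct 6, 9.69 in dTg 2, 5.49 in dTg 3 and 10.7 in dTg 6. FPKM is a level per kilobase of transcript and scaled to library size. In the striatum-poor libraries Drd2 ranged from 0.193 to 1.85 FPKM with a median of 0.436. The classes did not overlap, and the 2 Ct libraries of the striatum-rich class were above the 3 dTg ones. Adora2a, an adenosine receptor that drives cAMP synthesis, was at 26.5, 29.5, 13.6, 7.55 and 14.8 FPKM in the same 5 libraries and at 0.665 to 2.53 FPKM (median 0.844) in the striatum-poor ones. Drd1, the D1 receptor, was at 17.96, 20.6, 10.8, 5.78 and 11.2 FPKM against 1.98 to 3.38 FPKM (median 2.58). Adcy5, the cyclase of the pathway, was at 60.2, 59.9, 40.2, 32.5 and 44.97 FPKM against 21.9 to 27.4 FPKM (median 23.1). Each of the 4 markers kept the classes apart, which the choice of libraries fixes.

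Differences between the classes are given as log2(FPKM + 0.5) of the striatum-rich libraries minus that of the striatum-poor ones, fitted with a genotype term in limma. They were 3.70 ± 0.28 (SE, 5 and 7 libraries) for Drd2, 3.55 ± 0.25 for Adora2a, 2.08 ± 0.24 for Drd1 and 1.002 ± 0.11 for Adcy5. The added 0.5 FPKM understates the change of genes with low levels. Of the 4 markers, Adcy5 had the highest level in striatum-poor libraries and the lowest difference, and Drd2 had the lowest level there and the highest difference.

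**Figure D1:**
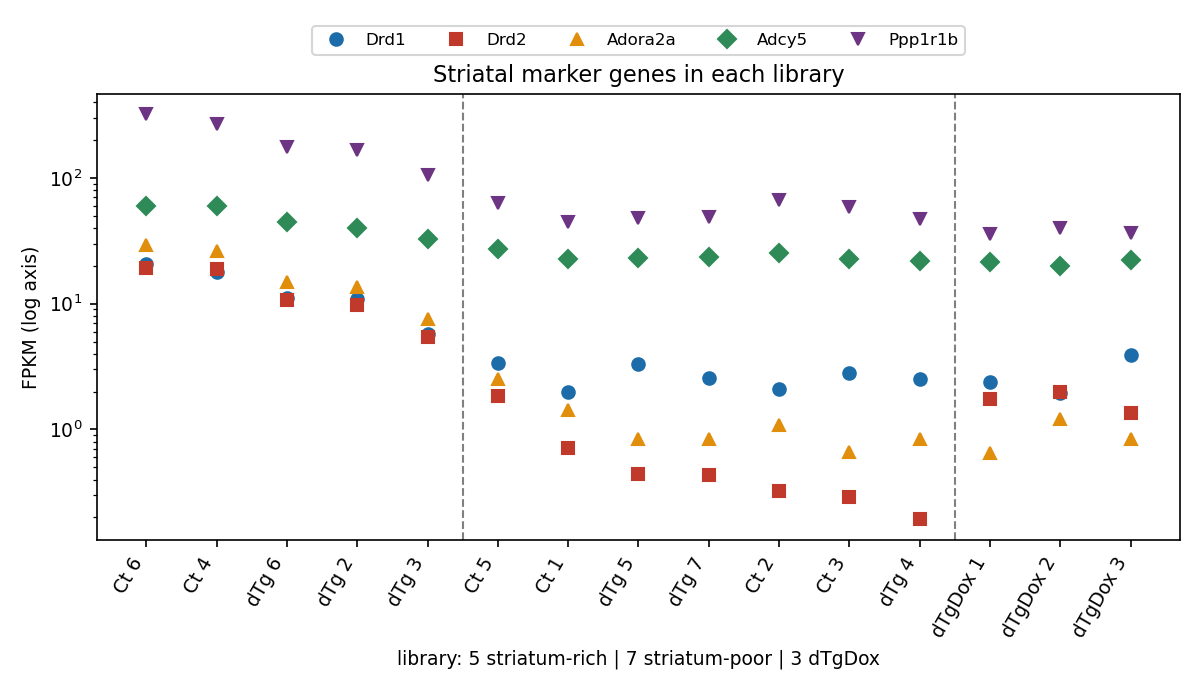
FPKM (log axis) of 4 striatal marker genes and Ppp1r1b in the 5 striatum-rich, 7 striatum-poor and 3 dTgDox libraries, 1 point per gene and library, ordered by striatal index within the first 2 sets. Drd2 fell between 5.49 and 19.1 FPKM in the striatum-rich libraries and between 0.193 and 1.85 FPKM in the striatum-poor ones.

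The mean of log2(FPKM + 0.5) over the 4 markers, called the striatal index below, was 4.88 in Ct 6, 4.79 in Ct 4, 4.12 in dTg 6, 4.00 in dTg 2 and 3.32 in dTg 3. In the striatum-poor libraries it was 2.40 in Ct 5, 1.76 in Ct 1, 1.71 in dTg 5, 1.63 in dTg 7, 1.62 in Ct 2, 1.54 in Ct 3 and 1.49 in dTg 4. The libraries just inside and just outside the divide were thus dTg 3 and Ct 5. The striatum-rich libraries spread over a wider range of the index than the striatum-poor ones, of which 6 lay within 1.49 to 1.76.

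The 12 libraries had summed FPKM of 628549 to 694999, 15762 to 16077 genes at 1 FPKM or more, and an estimated depth, in M reads, of 20 to 31. Genes of forebrain excitatory neurons, which mark the labelled tissue, were present throughout: their mean log2(FPKM + 0.5) was 6.03 to 6.18 in striatum-rich libraries and 6.004 to 6.49 in striatum-poor ones. Olfactory bulb genes were uneven within both classes, with an index (Eomes, Tbx21, Cdhr1 and Doc2g) of 4.61 in Ct 1, 3.64 in dTg 3, 3.52 in Ct 5 and 2.97 in Ct 2 against -0.17 to 1.35 in the other libraries.

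Of 18726 genes tested, 97 passed an adjusted p of 0.05 between the classes (limma, Benjamini-Hochberg over all genes), which is 0.518% of them. They were mostly higher in the striatum-rich libraries: 89 were higher (0.475% of the genes tested) and 8 lower (0.0427%). Of the 97, 89 were protein-coding and 58 differed at least 2-fold. Genes had to reach 0.5 FPKM in 3 libraries to be tested. Those that did so only in striatum-rich libraries were tested only through the class in which they were high, and their calls are a description. Regardless of the test, 110 genes (0.587%) were higher in every striatum-rich library than in any striatum-poor one, and 47 genes (0.251%) were lower in every one. The median difference of all genes tested was -0.01, and 47.2% of them had a difference above 0. In bulk RNA, fewer cells of a type and less RNA per cell cannot be told apart, so these values do not say which of them differed between libraries.

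Among the dopamine receptors, Drd3, a receptor of the ventral striatum, was also past the threshold, at low levels. It reached 0.5 FPKM in striatum-rich libraries alone, so it was tested only through the class in which it was high. Its FPKM was 1.03 in Ct 4, 0.785 in Ct 6, 0.276 in dTg 2, 0.180 in dTg 3 and 0.663 in dTg 6, against 0 to 0.116 in the striatum-poor libraries, and the classes did not overlap. Drd5, the second D1-type receptor, was not past the threshold: it was at 0.679 to 1.38 FPKM against 0.159 to 1.47 FPKM, and its difference was 0.23 ± 0.24. Of the 2 D1-type receptors, Drd5 overlapped between the classes and Drd1 did not.

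The list of dopamine receptor and cAMP signalling genes had 45 tested members other than the markers Drd1, Drd2 and Adcy5. Their median difference was 0.13 against -0.01 over all genes. Of the 45, 9 passed the threshold, all higher, against 0.475% of all genes tested. Those past it were Drd3, Gnal, Gng7, Pde10a, Pde1b, Ppp1r1b, Rasd2, Rgs2 and Rgs9. Of these, Drd3 met the filter only through the striatum-rich class. Ppp1r1b, which encodes DARPP-32, was at 267 FPKM in Ct 4, 320 in Ct 6, 166 in dTg 2, 106 in dTg 3 and 177 in dTg 6. Its striatum-poor levels were 44.5 to 66.6 FPKM (median 49.2), and the difference was 1.94 ± 0.17, or 3.83-fold. Striatum-poor libraries thus held DARPP-32 RNA well above the level of Drd2, and the lowest striatum-rich library lay above the highest of them.

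Gng7, the G protein gamma subunit paired with striatal receptors, was at 114, 107, 58.0, 47.7 and 73.8 FPKM in Ct 4, Ct 6, dTg 2, dTg 3 and dTg 6, against 22.1 to 39.0 (median 24.4). Its difference was 1.56 ± 0.18. Gnal, the stimulatory alpha subunit of the striatum and olfactory system, was at 70.2, 62.95, 45.02, 41.3 and 55.2 FPKM against 24.99 to 40.1 FPKM (median 35.3), with a smaller difference of 0.72 ± 0.11. The classes did not overlap for either subunit, but Gnal was near the divide in dTg 3 and Ct 5. Gnas, the widely expressed stimulatory subunit, overlapped between the classes, at 683 to 778 FPKM against 730 to 879 FPKM.

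Pde10a, a phosphodiesterase enriched in medium spiny neurons, was at 57.7, 58.6, 27.9, 23.4 and 37.2 FPKM in the striatum-rich libraries and at 7.31 to 15.97 FPKM (median 13.9) in the others, a difference of 1.70 ± 0.16. Pde1b, a calmodulin-dependent phosphodiesterase, was at 132, 140, 84.6, 65.6 and 90.9 FPKM against 43.7 to 54.6 FPKM (median 47.0), with 1.11 ± 0.12. Both enzymes kept the classes apart. Pde7b had a difference of 0.89 ± 0.19 and did not pass the threshold, and Pde1a, Pde4b, Pde4d and Pde8b had differences of -0.04, 0.16, 0.01 and 0.17. The other adenylyl cyclases Adcy1, Adcy2, Adcy3, Adcy6, Adcy8 and Adcy9 did not pass it either, with differences of -0.47 to -0.17, nor did any of the 6 subunits of protein kinase A. Of these subunits Prkaca, Prkacb, Prkar1a and Prkar2a lay within -0.05 to 0.02, Prkar1b was at -0.17 ± 0.11 and Prkar2b at 0.41 ± 0.11.

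Rgs9, which speeds the shut-off of D2 receptor signals, was at 48.7, 49.7, 27.4, 16.8 and 27.2 FPKM in Ct 4, Ct 6, dTg 2, dTg 3 and dTg 6, against 3.94 to 9.31 FPKM (median 5.71). Its difference was 2.46 ± 0.21, or 5.49-fold, and the classes did not overlap. Rasd2, a small G protein of the striatum, had a difference of 0.94 ± 0.11. Rgs2, another regulator of G protein signalling, was past the threshold with a small difference of 0.40 ± 0.07, at 30.7 to 38.5 FPKM against 24.4 to 28.3 FPKM. Rgs4, Rgs8, Rgs14 and Rgs20 were not past it, with differences of -0.06, 0.42, 0.13 and 0.19.

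The neuropeptide precursors of both pathways were higher in the striatum-rich libraries. Tac1, the precursor of substance P, was at 100.2 FPKM in Ct 4, 99.95 in Ct 6, 51.8 in dTg 2, 37.0 in dTg 3 and 61.6 in dTg 6, against 8.74 to 21.9 (median 14.97). Penk, the precursor of enkephalin, was at 244, 266, 121, 105 and 131 FPKM against 22.9 to 69.1 (median 42.1). The difference was 2.20 ± 0.17 for Tac1 and 2.16 ± 0.21 for Penk, and neither gene overlapped between the classes. Nts, the neurotensin precursor, was at 9.83, 7.54, 2.31, 2.41 and 6.01 FPKM against 0.261 to 1.99 FPKM (median 0.518). Pdyn, the dynorphin precursor of direct pathway neurons, had a difference of 1.05 ± 0.22 without passing the threshold, at 11.6 to 30.2 FPKM against 6.21 to 11.9 FPKM. Over the list of neuropeptide and opioid genes, 5 of 23 passed, all higher, against 0.475% of all genes tested. They were Tac1, Penk, Nts, Cartpt and the kappa opioid receptor Oprk1, and the median difference of the list was 0.07.

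Members of both pathways other than the markers stood among the genes past the threshold. Of all genes tested, 0.475% were past it as higher. Of the D1 direct pathway genes without Drd1, 5 of 15 tested were past it (Asic4, Isl1, Nts, Slc35d3 and Tac1), none lower, with a median difference of 0.31. Of the D2 indirect pathway genes without Drd2 and Adora2a, 3 of 12 were (Gpr6, Penk and Upb1), none lower, with a median of 0.40. Isl1 and Upb1 stayed below 0.5 FPKM in every striatum-poor library. Both met the filter only through the striatum-rich class, so their calls are a description. With the markers counted the medians were 0.60 and 0.67. Drd1 and Drd2 were at nearly equal levels in every striatum-rich library, with a ratio of Drd1 to Drd2 FPKM of 0.949 in Ct 4, 1.08 in Ct 6, 1.12 in dTg 2, 1.05 in dTg 3 and 1.04 in dTg 6. In the striatum-poor libraries the ratio was higher, from 1.83 in Ct 5 to 13.1 in dTg 4. The ratio of Tac1 to Penk ranged from 0.204 to 0.643 over the 12 libraries and did not separate the classes.

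Drd2 had the highest difference of all genes tested. Its promoter, the 250 bases before the RefSeq start (GRCm38.p6, chr9:49340153-49340402, plus strand, 5′ to 3′), is shown because the D2 receptor leads the description, with the GC boxes (GGGCGG, either strand) in capitals. No exon of the GENCODE M21 annotation lies in it.
Drd2: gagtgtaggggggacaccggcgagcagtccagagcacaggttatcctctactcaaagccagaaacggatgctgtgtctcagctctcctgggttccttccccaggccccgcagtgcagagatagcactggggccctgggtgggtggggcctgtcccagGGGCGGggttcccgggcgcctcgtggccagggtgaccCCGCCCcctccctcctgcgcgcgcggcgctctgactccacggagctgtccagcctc
The window holds 2 such boxes, the first beginning 93 bases before the start. The GC box is common: it was present in 35.4% of the 27025 genes with a RefSeq promoter, in 61.4% of the 11918 such genes that were tested, and in 32 of the 64 such genes that passed the threshold as higher (50%). A gene with several starts was counted as having a motif if any of its windows held it.

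Transcription factors of medium spiny neurons had 8 of 23 members past the threshold, all higher, against 0.475% of all genes tested. Their median difference was 0.57. Six3, a factor required for indirect pathway neurons, was at 7.13, 5.30, 3.99, 1.46 and 4.44 FPKM in Ct 4, Ct 6, dTg 2, dTg 3 and dTg 6 and at 0 to 0.483 FPKM in the striatum-poor libraries (difference 3.07 ± 0.26). Isl1, a factor of direct pathway and cholinergic neurons, was at 5.83, 4.85, 1.66, 1.47 and 3.71 FPKM against 0 to 0.485 (2.73 ± 0.26). Among the striatum-poor libraries both were highest in Ct 5. The antisense transcript Six3os1 was also past the threshold, and its reads cannot be told apart from those of Six3, since strand-aware counting is not stated. The 8 count Six3 and Six3os1 as 2 members. Six3, Six3os1 and Isl1 stayed below 0.5 FPKM in every striatum-poor library and met the filter only through the striatum-rich class.

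Rarb, a retinoic acid receptor of striatal neurons, was at 10.5, 10.8, 6.91, 4.55 and 6.71 FPKM against 2.09 to 3.13 FPKM (median 2.45), a difference of 1.49 ± 0.15. Rxrg, its dimer partner from the retinoid X receptors, was at 14.6, 13.5, 10.5, 6.76 and 10.1 FPKM against 1.08 to 4.55 FPKM (2.05 ± 0.22). Foxp2 was at 7.75, 6.25, 4.31, 4.11 and 5.28 FPKM against 1.69 to 3.08 FPKM (1.21 ± 0.11). These 3 factors kept the classes apart. Bcl11b, shared by striatal and deep-layer cortical neurons, and Foxo1 were past the threshold with smaller differences of 0.76 ± 0.14 and 0.57 ± 0.11, and Bcl11b overlapped between the classes. Foxp1 (0.29 ± 0.16), Meis2 (0.27 ± 0.36) and Ikzf1 (0.16 ± 0.15) did not pass it, and Meis2 was highest in Ct 1 (161 FPKM) and dTg 3 (145 FPKM), libraries that also had high olfactory bulb levels.

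Sites of 30 bases that hold 2 response elements of the pathways above are shown from the RefSeq promoter table (GRCm38.p6, minus strand, 5′ to 3′), with the matched letters in capitals. The retinoic acid direct repeat was searched as GTTCA followed by any 5 bases and AGTTCA, and the cAMP response element as TGACGTCA, on both strands of the 250 bases before a start.
Rarb: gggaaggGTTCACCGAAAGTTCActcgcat
Gpr6: aacccagagccTGACGTCAccggaccccgc
Cartpt: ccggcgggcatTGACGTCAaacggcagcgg
The Rarb site lies at chr14:16575506-16575535, with the repeat beginning 52 bases before the start, and 2 exon entries of the GENCODE M21 annotation, on either strand, overlap it. Of all genes with a promoter, 0.033% held such a repeat, as did 4 of the 11918 tested ones (0.034%). Among the 64 genes past the threshold as higher with a promoter, Rarb alone held it (1.6%). The repeat was searched in 1 fixed form, whose letters are those of the Rarb site, so this match and its share are a description only. The Gpr6 site lies at chr10:41072350-41072379 and the Cartpt site at chr13:99900777-99900806. In the same annotation 1 exon entry overlaps the Cartpt site and 0 overlap the Gpr6 site. The cAMP response element was present in 2.96% of the tested genes with a promoter and in 2 of these 64 (3.1%). The TATAAA motif was present in 8.15% and in 7 of 64 (10.9%). A match is a match of letters and not a shown binding site.

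The list of shared medium spiny neuron genes had 43 tested members other than the marker Adcy5. Of these, 23 were past the threshold, all higher, against 0.475% of all genes tested. Among the 23, Ido1, Serpina9, Sh3rf2 and Gpr149 stayed below 0.5 FPKM in every striatum-poor library. They met the filter only through the striatum-rich class, so their calls are a description. Above 0 were 38 of 43 (47.2% over all genes), and the median difference was 0.94. Gpr6, an orphan receptor on the indirect pathway list and not on this one, was at 9.77, 10.9, 5.67, 2.97 and 5.16 FPKM against 0.391 to 1.61 FPKM (2.55 ± 0.26). Syndig1l, a relative of a synapse-building membrane protein, was at 16.1, 18.2, 11.3, 7.65 and 9.34 FPKM against 0.546 to 5.02 FPKM (2.69 ± 0.38). Lrrc10b, a leucine-rich repeat gene, was at 16.97, 19.2, 10.3, 6.07 and 9.997 FPKM against 1.22 to 2.60 FPKM (2.66 ± 0.21). These 3 genes kept the classes apart, and Syndig1l was higher in Ct 1 (5.02 FPKM) and Ct 5 (4.30 FPKM) than in the other striatum-poor libraries.

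Cd4, known as a coreceptor of T cells, was among the 15 genes with the highest differences, at 8.35, 8.85, 6.80, 2.71 and 5.85 FPKM against 0.0744 to 1.27 FPKM (2.60 ± 0.34). Scn4b, a sodium channel beta subunit, differed by 1.39 ± 0.25 and Kcna5, a potassium channel, by 1.43 ± 0.21. Both channels overlapped between the classes, Scn4b through Ct 2 (23.9 FPKM) and dTg 3 (21.9 FPKM). Several genes often named as striatal did not pass the threshold, and their levels overlapped between the classes: Ptpn5 was at 45.3 to 66.6 FPKM against 38.8 to 55.6 FPKM, Arpp21 at 180 to 272 FPKM against 158 to 204 FPKM, and Rgs4 at 152 to 193 FPKM against 136 to 224 FPKM. The matched glutamate and GABA receptor subunits had 0 of 28 members past the threshold and a median difference of 0.00.

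Striosome and matrix, the compartments of the dorsal striatum, each had 1 gene past the threshold: Foxp2 of 13 and Rasgrp2 of 10. In the ventral striatum list 3 of 13 were (Cartpt, Drd3 and Nts), with a median difference of 0.49. Of these, Drd3 met the filter only through the striatum-rich class. Of all genes tested, 0.475% were past the threshold as higher. Cartpt, a peptide precursor, was at 10.5, 7.38, 4.23, 6.68 and 7.60 FPKM against 1.03 to 4.35 FPKM (1.59 ± 0.26), and it overlapped between the classes through Ct 2.

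**Figure D2:**
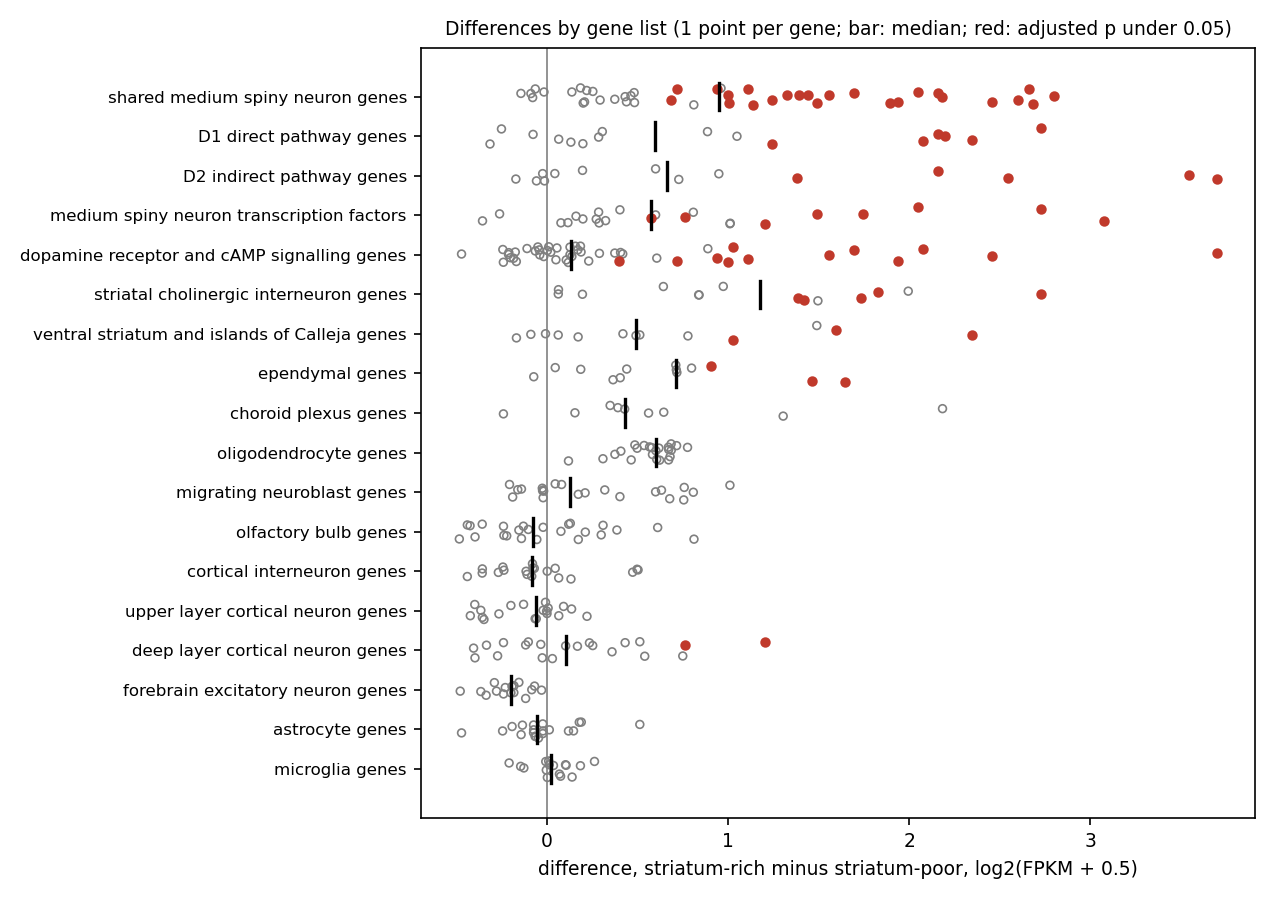
Difference between the classes in log2(FPKM + 0.5), striatum-rich minus striatum-poor, for the members of 18 gene lists, 1 point per gene, with red points for adjusted p under 0.05 and a bar at each list's median, the 4 markers included. The shared medium spiny neuron list has a median of 0.95, the oligodendrocyte list 0.60 with no red point, and the forebrain excitatory neuron list -0.19.

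Cholinergic interneuron genes were higher in the striatum-rich libraries as well. All 14 tested members had differences above 0, with a median of 1.18, and 5 of them passed the threshold, among them Chat, Slc5a7, Slc18a3 and Isl1. Of all genes tested, 47.2% were above 0 and 0.475% passed as higher. Chat, Slc18a3 and Isl1 stayed below 0.5 FPKM in every striatum-poor library and met the filter only through the striatum-rich class. Chat, the enzyme that makes acetylcholine, was at 3.65 FPKM in Ct 4, 1.89 in Ct 6, 0.999 in dTg 2, 0.565 in dTg 3 and 2.11 in dTg 6, against 0.0922 to 0.346 FPKM (median 0.140). Slc5a7, the choline transporter, was at 4.43, 2.53, 1.44, 0.680 and 3.07 FPKM against 0.138 to 0.518 FPKM (median 0.299). Slc18a3, the vesicular acetylcholine transporter, was at 2.47, 1.499, 0.668, 0.450 and 1.30 FPKM against 0.0696 to 0.259 FPKM. Slc18a3 lies inside the Chat gene on the same strand, so their reads may be shared. The 3 genes had the same order of libraries, Ct 4 first, then dTg 6 and Ct 6 in either order, then dTg 2 and dTg 3. Lhx8, a transcription factor of forebrain cholinergic neurons, followed with 3.29, 0.998, 0.402, 0.114 and 1.71 FPKM against 0.0175 to 0.169 FPKM, did not pass the threshold and overlapped in dTg 3. The list of pallidal and basal forebrain genes, which shares Chat, Slc5a7 and Slc18a3 with it, had 5 of 14 past the threshold and a median of 0.79. Acetylcholine receptors had 0 of 9 past the threshold and a median of -0.04.

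Genes of tissue other than striatal neurons moved with the classes too. Among ependymal genes, which mark the ciliated lining of the ventricles, 3 of 13 passed the threshold as higher, against 0.475% of all genes tested. They were Ccdc153, Tmem212 and Ak7. Ak7 stayed below 0.5 FPKM in every striatum-poor library and met the filter only through the striatum-rich class. Above 0 were 12 of 13 (47.2% over all genes), with a median difference of 0.71. Ccdc153, a gene of motile cilia, was at 1.48, 1.73, 1.40, 1.03 and 1.36 FPKM against 0 to 0.541 FPKM, Tmem212 at 1.70, 1.69, 1.77, 1.49 and 2.46 FPKM against 0 to 1.04 FPKM, and the cilia regulator Foxj1 at 2.005 to 2.43 FPKM against 0.595 to 1.68 FPKM. By the mean of the list, Ct 4 (1.35) was the lowest striatum-rich library and dTg 6 (1.596) the highest, an order unlike that of the striatal index. Choroid plexus genes had 0 of 9 past the threshold and a median of 0.43, with Ttr at 0.867 to 120 FPKM in striatum-rich and 0.407 to 88.2 FPKM in striatum-poor libraries.

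Oligodendrocyte genes had 23 of 23 tested members above 0, against 47.2% of all genes, and a median difference of 0.60, yet 0 passed the threshold. The mean log2(FPKM + 0.5) of the list was 5.20 to 5.56 in striatum-rich and 4.39 to 5.47 in striatum-poor libraries, so the classes overlapped. Among the latter, dTg 4 was the highest at 5.47. Mobp, a myelin component, was at 224 to 293 FPKM in the striatum-rich libraries, and at 92.6 to 297 FPKM in the striatum-poor ones. With an index of 3 myelin genes (Mbp, Mog and Mag) as a further term, 19 genes passed the threshold, all of them among the 97. The part of oligodendrocyte content in the differences above was not tested otherwise.

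Forebrain excitatory neuron genes, which mark the labelled tissue, lay in 1 direction: 0 of 16 members were above 0, against 47.2% of all genes, with a median of -0.19 and none past the threshold. Upper-layer genes had a median of -0.06, with 0 of 19 past it. Deep-layer genes had a median of 0.10, and their 2 members past the threshold, Bcl11b and Foxp2, are also on the striatal factor list. Cortical interneuron genes had a median of -0.08 and 0 of 19 past the threshold, although the GABA synthesis enzyme Gad2 (0.50 ± 0.13) and the vesicular GABA transporter Slc32a1 (0.50 ± 0.11) were above that. Astrocyte, microglia and endothelial genes had medians of -0.05, 0.03 and -0.09 with none past the threshold. Immediate-early genes had 3 of 23 above 0, against the same 47.2%, and a median of -0.22, and the ranges of their mean level overlapped (3.27 to 4.67 against 3.67 to 5.13).

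**Figure D3:**
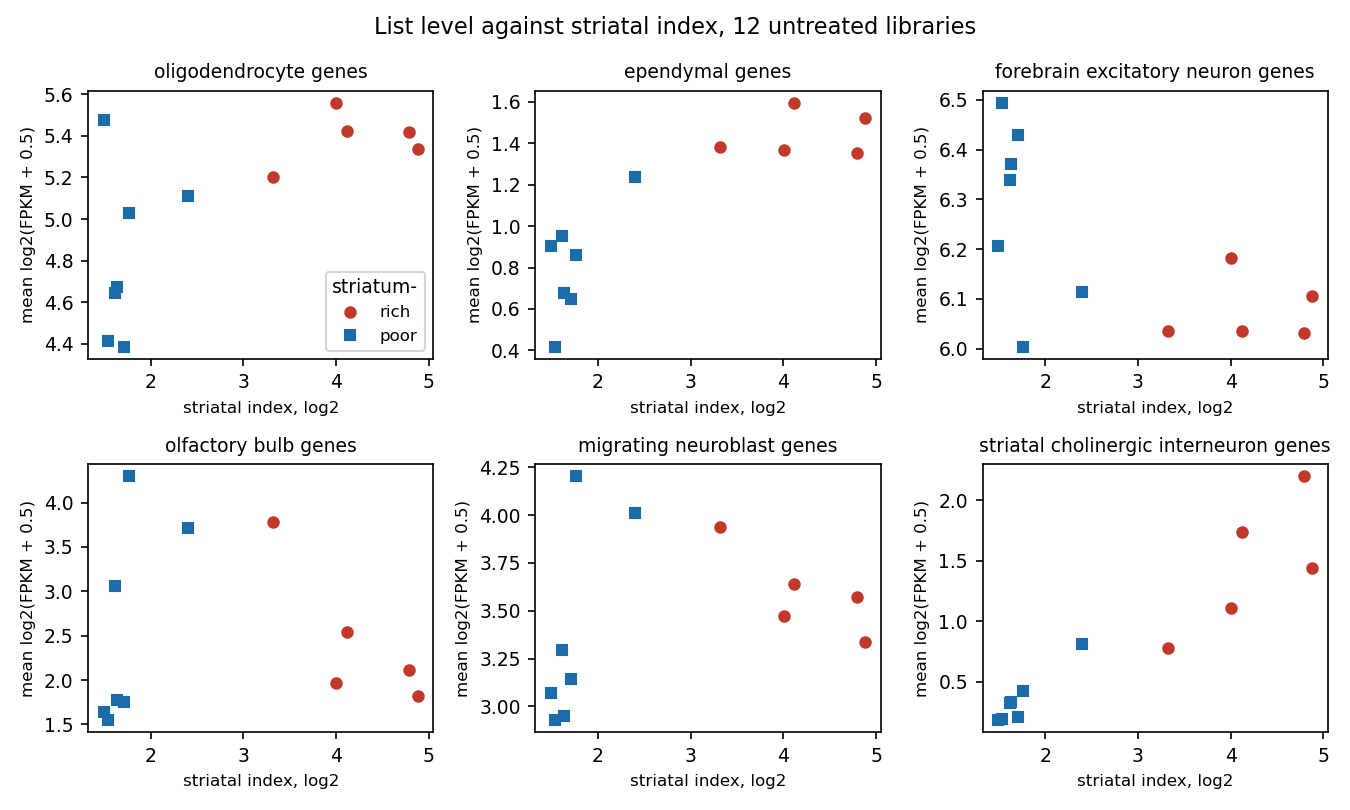
Mean log2(FPKM + 0.5) of 6 gene lists (vertical axes) against the striatal index (horizontal axes, log2) in the 12 libraries, with circles for striatum-rich and squares for striatum-poor ones. Ependymal levels were 1.351 to 1.596 in the striatum-rich libraries and 0.42 to 1.24 in the others, and olfactory bulb levels overlapped (1.82 to 3.78 against 1.55 to 4.30).

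Olfactory bulb genes had a median difference of -0.08 and migrating neuroblast genes of 0.13, with none past the threshold in either list. Within genotypes their medians had opposite signs: -0.83 in Ct and 0.84 in dTg for the bulb list, and -0.09 and 0.75 for the neuroblast list. The bulb index was high in Ct 1, Ct 2 and Ct 5 of the striatum-poor class and in dTg 3 of the striatum-rich one, and its part in other differences was examined only by the fit that follows. With the bulb index as a further term, 128 genes passed the threshold, 95 of them among the 97.

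The 8 lower genes had small differences. Grm2, a presynaptic glutamate receptor, was at 14.4, 12.9, 18.1, 19.8 and 14.99 FPKM in Ct 4, Ct 6, dTg 2, dTg 3 and dTg 6, against 20.4 to 28.2 FPKM (median 24.2), a difference of -0.66 ± 0.11. L3mbtl1, a chromatin-binding protein, was at 2.10, 1.72, 2.74, 2.52 and 2.22 FPKM against 2.99 to 4.97 FPKM (-0.78 ± 0.08). Kcnn2, a calcium-activated potassium channel, was at 11.8, 12.9, 13.3, 14.8 and 12.1 FPKM against 15.99 to 20.1 FPKM (-0.47 ± 0.07). Zbtb16 (-0.62), Farp1 (-0.40), Pitpnm3 (-0.40) and Ltbp1 (-0.39) were the other lower genes with an informative symbol. Of the 8 lower genes, 7 had every striatum-rich library below every striatum-poor one, against 0.251% of all genes tested. Of the 89 higher genes, 63 had every striatum-rich library above, against 0.587%. Both sets were picked for their difference between the classes, so these counts are a description.

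Inside the striatum-rich class the levels of other genes were set beside the order of the index. Leaving out the 4 markers, which define the index, 53 higher genes passed the threshold with a mean log2(FPKM + 0.5) of at least 1 and an informative symbol. Of these 53, all of them picked for their difference between the classes, 37 were higher in both Ct 4 and Ct 6 than in dTg 2 and dTg 6, and higher in those than in dTg 3. Ct 4 and Ct 6 are the only Ct libraries of the class, so in that step the order by index cannot be told apart from genotype. The share of all genes tested with this order was not computed, so 37 of 53 is a description only. With the mean of the 7 striatum-poor libraries set to 0 and that of Ct 4 and Ct 6 to 100, the median level of the 53 genes was 53.6 in dTg 6 (quartiles 46.3 and 62.1), 49.6 in dTg 2 (35.4 and 59.5) and 27.5 in dTg 3 (22.9 and 36.5). Ct 5 stood at 8.8 (3.2 and 20.5), and the other striatum-poor libraries lay between -7.4 and 1.0. The quartile ranges of dTg 6 and dTg 3 did not overlap, while those of dTg 2 and dTg 3 did. Chat stood apart from this scale, at 133.7 in Ct 4 and 66.3 in Ct 6, and at 74.5 in dTg 6.

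Across the 12 libraries, 63 of the 89 higher genes had a Pearson correlation of at least 0.9 with the striatal index, as did 70 of all 18726 genes, and 11 genes had one of at most -0.9. Closest to it outside the markers were Rgs9 and Lrrc10b, both at 0.996, and Gpr6, Six3 and Isl1 at 0.99. Among the lower genes Kcnn2 was at -0.95 and Grm2 at -0.93. These correlations describe the same 12 libraries from which the classes were chosen, and the index contains the 4 markers.

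**Figure D4:**
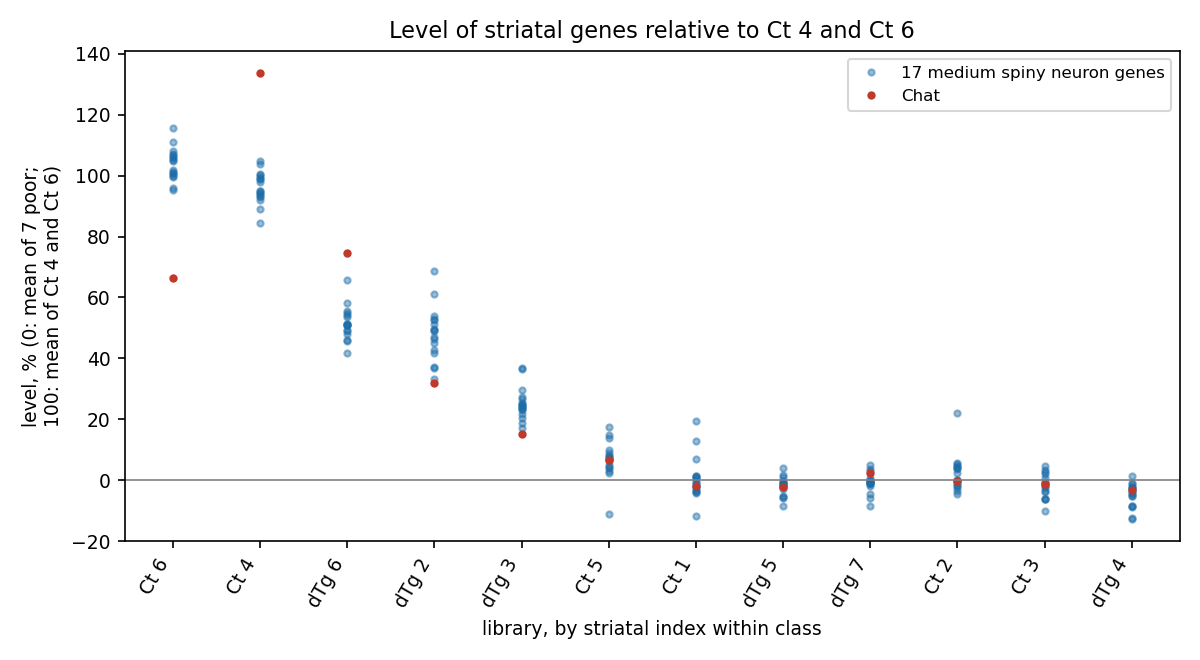
Level of 17 medium spiny neuron genes and Chat in each of the 12 libraries, in percent of the step from the mean of the 7 striatum-poor libraries (0) to the mean of Ct 4 and Ct 6 (100), 1 point per gene and library. Over 53 genes other than the 4 markers the medians were 53.6 in dTg 6, 49.6 in dTg 2, 27.5 in dTg 3 and 8.8 in Ct 5.

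Each genotype was also fitted alone. In Ct (2 against 4 libraries) 26 of 17770 genes passed the threshold (0.146%), and in dTg (3 against 3) 32 of 17899 (0.179%). Both sets held Adora2a, Drd2, Gpr6, Lrrc10b, Ppp1r1b and Rgs9, which is 23.1% of the first and 18.8% of the second. The 89 genes had a median difference of 1.38 in Ct and 1.09 in dTg over those tested there. Of the 89, 70 were tested and above 0 in Ct, and 80 in dTg. The filter of 0.5 FPKM in 3 libraries was applied within each genotype. Genes that reached it only in the 2 striatum-rich Ct libraries, such as Six3, Isl1 and Chat, could not be tested in Ct. The counts, the shared genes and the medians of the 2 genotypes thus rest on different sets of genes. Drd2 differed by 4.06 in Ct and 3.38 in dTg, Drd1 by 2.71 and 1.51, and Pdyn by 1.61 and 0.55. These 3 genes differed more in Ct, in which both striatum-rich libraries had an index above that of every dTg library.

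Whether the difference between the classes itself differed by genotype was tested with an interaction term, and 2 of 18726 genes passed an adjusted p of 0.05 (0.0107%), while 1153 were under 0.05 unadjusted. They were Mir6403 and Gm7381, a processed pseudogene, and neither is a striatal gene. Both reached 0.5 FPKM in dTg 4, dTg 5 and dTg 7 alone, so they met the filter of 3 libraries only through the group in which they were high, and their calls are given as a description. With a filter of 1 FPKM in 6 libraries 0 genes passed. Mir6403 was listed at 5.02, 5.43 and 4.99 FPKM in dTg 4, dTg 5 and dTg 7 and at 0 in the other 9 libraries, and Gm7381 at 1.72, 3.28 and 3.75 FPKM in dTg 4, dTg 5 and dTg 7, at 0.226 in Ct 4 and at 0 elsewhere. A value listed at 0 may be a failed estimate, since mt-Co1 was also listed at 0 in dTg 2. For Drd1, Drd2, Adora2a and Adcy5, whose levels formed the classes, the class difference in dTg less that in Ct was -1.20, -0.68, -0.81 and -0.53, given without a test.

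**Figure D5:**
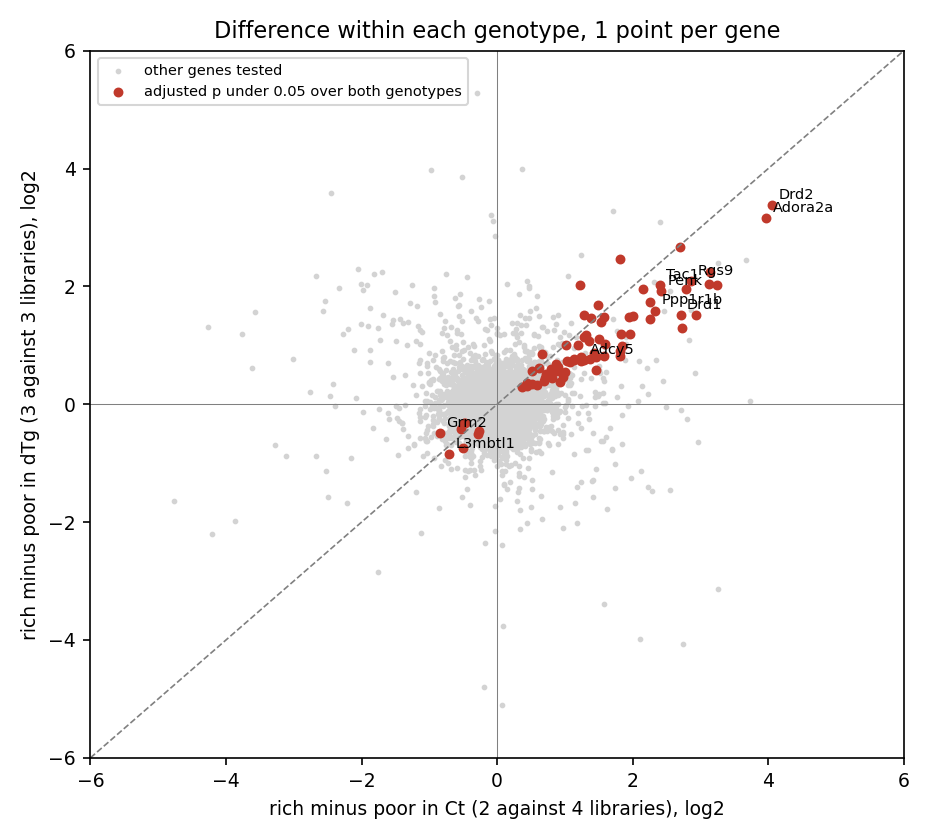
Difference between the classes in log2(FPKM + 0.5) within Ct (horizontal axis, 2 against 4 libraries) and within dTg (vertical axis, 3 against 3), 1 point per gene, with red points for genes past an adjusted p of 0.05 over both genotypes and a dashed line at equal differences. Drd2 lies at 4.06 and 3.38, Drd1 at 2.71 and 1.51, and Grm2 at -0.85 and -0.49.

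The genotype comes from the labels and was not used to form the classes, so it can be tested. Striatum-rich libraries were 2 of 6 in Ct and 3 of 6 in dTg (Fisher's exact test, two-sided, p = 1). The striatal index was 2.83 ± 1.58 in Ct and 2.71 ± 1.24 in dTg (SD, n = 6 each), a difference of -0.12 that was smaller than the spread between libraries (exact permutation test, two-sided, p = 0.929, 924 arrangements). Its sign turned to above 0 when Ct 4, Ct 6, dTg 4, dTg 5 or dTg 7 was left out.

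Between dTg and Ct, 0 of 18726 genes passed an adjusted p of 0.05 in limma with the class in the model (0%), while 813 were under 0.05 unadjusted. Without the class, 0 passed (0%) and 542 were under 0.05 unadjusted. The gene with the smallest p with the class in the model was Apobec3, an antiviral cytidine deaminase, at 3.15 to 5.12 FPKM in the 6 dTg libraries and 1.32 to 3.04 FPKM in the 6 Ct libraries, or 0.81 higher in dTg (SE 0.16, adjusted p = 0.686). The classes shifted what the genotype comparison gave for striatal genes: the median dTg minus Ct difference of the 43 shared medium spiny neuron genes other than Adcy5 was -0.15 without a striatal term, -0.29 with the class and -0.08 with the striatal index. The members below 0 numbered 31, 36 and 29, against 9742, 9624 and 9738 of 18726 over all genes.

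The 3 dTgDox libraries, from dTg-211 mice given doxycycline for 4 days, were not used to choose the classes, and their values are given without a test. Their striatal index was 1.84, 1.93 and 1.99, inside the range of the striatum-poor libraries. Drd2 was at 1.73, 1.98 and 1.36 FPKM, Adora2a at 0.654, 1.22 and 0.832 FPKM, and Tac1 at 7.49, 8.53 and 4.94 FPKM. Not all genes that were higher in the striatum-rich libraries were low in them. Lrrc10b was at 23.9, 21.6 and 24.1 FPKM, above every striatum-rich library, and Nts at 11.5, 13.8 and 7.97 FPKM. Gng7 was at 52.2, 53.8 and 47.4 FPKM, near the lowest striatum-rich level of 47.7 FPKM, with 1 of the 3 values below it. Hippocampal genes had a mean log2(FPKM + 0.5) of 4.22 to 4.49 in these 3 libraries, against 2.20 to 2.68 in the 12 untreated ones, and the part of that in the values of Lrrc10b, Nts and Gng7 was not tested. Grm2 was at 13.7 and 13.3 FPKM, inside the striatum-rich range of 12.9 to 19.8 FPKM, and at 12.4 FPKM, just below it.

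The count of genes past the threshold rested on single libraries. It was 44 without Ct 4, 49 without Ct 6 and 58 without dTg 6, and in each of these fits 94.8% or more of the genes past the threshold were higher. Of dTg 5, dTg 6 and dTg 7, whose library names in the file headers share a number of unstated meaning, leaving out dTg 5 and dTg 7 gave 74.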

How the data were processed

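Polyadenylated RNA was measured in 17 frontal cortex samples, of which 12 untreated libraries are compared here. The deposited values are FPKM per Ensembl gene, 46073 genes per file, in files whose headers give only a library name. Per the submitters' processing notes, TopHat2 and DESeq were among the tools. No version is listed for either, and the build, gene models and software behind the FPKM are not given in the sources used. Read counts were not used here, so no count model was fitted, and depth was estimated from the FPKM worth of 1 read in low genes. Symbols and coordinates came from GENCODE M21 (GRCm38), with 45139 identifiers matched and 934 not. Promoter sequences came from RefSeq (GRCm38.p6).

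Genes that reached 0.5 FPKM in 3 or more of the 12 libraries were fitted in limma 3.58.1 (R 4.3.3) on log2(FPKM + 0.5), with genotype and striatal class as terms, moderation with a trend and robust to outlying genes, and Benjamini-Hochberg adjustment over all genes tested. The genotype tests used the same fit, a fit without the class, and one with the interaction. The scripts were tested on simulated data. The classes, members and 36 gene lists were chosen with earlier results of these data known, and many lists share genes.

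Genes named were those past the threshold with a mean log2(FPKM + 0.5) of at least 1 and an informative symbol that had the 15 highest or 10 lowest differences, the members of the medium spiny neuron and cholinergic lists, and up to 4 members of every other list with the largest absolute differences. For the genotype tests and the interaction they were the genes past the threshold or those with the smallest p. Genes named outside these rules were chosen after their values were seen, and a few named by the rule are not reported here. Alternatives were other pseudocounts, filters and scalings, plain moderation, a replicate block, each library left out in turn, the striatal index in place of the class, each genotype alone and, chosen after seeing the data, marker indices as terms and pairs of libraries left out.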

Additional observations from a re-analysis of the deposited data

Results flagged for a closer look

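In 48 groups of libraries examined, 3 had a lowest or highest value separated from the rest by more than Dixon's 95% critical value, and chance gives about 1 in 20. The striatal index of Ct 5 (2.3977) lay above the other striatum-poor libraries, which were at 1.49 to 1.76. Lrrc10b was at 2.597 FPKM in Ct 5 and at 1.22 to 1.70 FPKM in the other striatum-poor libraries. Farp1 was at 28.45 FPKM in dTg 7 and at 21.3 to 23.9 FPKM in the other striatum-poor libraries.

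For 2 genes the difference between the classes itself differed between dTg and Ct by the interaction test in limma. The interaction was -3.4965 for Mir6403 and -2.9871 for Gm7381 on the log2(FPKM + 0.5) scale. Both are listed at 0 in all striatum-rich dTg libraries and above 0 in dTg 4, dTg 5 and dTg 7, so these sizes depend on the added 0.5 FPKM and are no fold changes. They met the filter on low values only through those 3 libraries. In the dTgDox libraries Mir6403 was at 5.05, 0 and 4.75 FPKM and Gm7381 at 5.403, 3.72 and 2.17 FPKM. The cause was not tested.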

How the results depend on the processing

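The count of 97 genes between the classes stayed within 1.5 times under other pseudocounts, filters and scalings and plain moderation (65 to 103), and without a genotype term (67). Leaving out each replicate in turn gave 44 to 115. It was 150 with the striatal index in place of the class (97 of them among the 97), 26 in Ct alone, 32 in dTg alone and 19 with the oligodendrocyte index as a term, which was chosen after seeing the data. Fewer libraries enter each genotype alone. For the other changes the cause was not tested. Among the results for named genes under these settings, 383 kept direction and threshold, 85 kept direction only and 0 turned.

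Replicate numbers shared by Ct and dTg (2 to 6) did not pair the samples: the correlations of deviations were 0.06, -0.10, 0.12, -0.09 and -0.20. With a replicate block 21 genes passed between the classes, 16 of them among the 97, 0 passed for dTg against Ct with or without the class, and 5 for the interaction.

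For dTg against Ct, 1 gene passed with a pseudocount of 0.1, with or without the class, and leaving out each replicate gave 0 to 1. The interaction gave 1 gene with a pseudocount of 0.1, 1 with a pseudocount of 1, 16 without a filter, 0 with a filter of 1 FPKM in 6 libraries, 1 with the index in place of the class, and 0 to 5 with a replicate left out. The difference in striatal index between dTg and Ct ranged from -0.40 to 0.29 with a replicate left out, being 0.27 without Ct 4, 0.29 without Ct 6, 0.13 without dTg 4, 0.08 without dTg 5 and 0.10 without dTg 7, and the exact permutation p was at least 0.665 in each.

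Without read counts no counting interval was computed, so differences of genes near 0.5 FPKM are the least certain.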
